A study of Drosophila melanogaster with 10 samples.

Results

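In late embryos of Drosophila melanogaster, 2030 Elys domains straddled the edge of a lamina-associated domain (LAD), each with at least 1 bin of 300 bp inside the LAD and at least 1 bin outside it. They were chosen from 14237 Elys domains on the large autosomal arms 2L, 2R, 3L and 3R, of which they make up 14.3%, and the series holds 19272 Elys domains in all. The remainder of these arms comprised 7081 domains lying wholly inside LADs and 5126 lying wholly outside. LADs were taken as deposited Lam domains joined across gaps of up to 900 bp, which turned 10416 Lam domains on the 4 arms into 3676 merged LADs with 7352 boundaries. The choice rests on the called positions themselves, so the geometry that follows is descriptive and carries no test.

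Elys (also called Mel-28) is a nucleoporin with DNA-binding motifs that seeds the assembly of nuclear pore complexes on chromatin after mitosis and that also binds chromatin in the nuclear interior. LADs are regions that contact the nuclear lamina, the meshwork of lamins under the inner nuclear membrane, and they are mostly gene-poor and weakly transcribed. In DamID, a protein fused to Dam, a bacterial adenine methylase, marks the DNA near which it resides, and unfused Dam controls for accessibility.

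The domains were derived from Dam-Elys and Dam-Lam embryos set against Dam embryos, with 2 replicates of each. Embryos were collected at 16 to 18 h and were F1 progeny of nos-Cre mothers, which express Cre in the germline. The fathers' transgene was pUAST-attB-hsp70-loxP-stop-loxP-Dam, its Dam-Elys counterpart or its Dam-Lamin counterpart, and all groups thus share the Cre. After Cre had removed the stop cassette, the basal hsp70 promoter drove the fusion in all tissues, so that each pool of embryos averages over many cell types. RNA was measured in a different system, cultured S2 cells (an embryonic hemocyte-like line) that received dsRNA of Elys (Elys-KD) or dsRNA of LacZ (control), in 2 replicates of each.

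Elys-KD cells held Elys transcripts at 4.96 and 4.55 TPM (a level scaled for gene length and library total), against 28.2 and 30.2 TPM in control cells, so the target was depleted in both Elys-KD libraries. The 4 RNA libraries held between 57622326 and 68034643 estimated counts. Of 8 hemocyte markers, 6 exceeded 1 TPM in control cells. The summed level of the 8 was 133 and 121 TPM in the Elys-KD libraries, against 113 and 120 TPM in the control libraries, of which srp, a GATA factor of blood cells, made up more than any other. Pxn was higher in Elys-KD cells, at 10.2 TPM against 6.36 TPM in control cells (edgeR adjusted p = 0.00132). So were He, at 0.923 TPM against 0.416 TPM (edgeR adjusted p = 0.0496), and eater, at 2.8 TPM against 1.96 TPM (edgeR adjusted p = 0.0455). The tests of srp, Hml, Col4a1 and vkg did not pass, and NimC1 was at 0 in 3 of the 4 libraries. The part of these differences in the gene results was not tested. Markers of muscle, fat body and synapses (Mhc, Act88F, Fbp1, Lsp2, nSyb and Syt1) all lay under 1 TPM in both groups, while the neuronal marker elav averaged 3.06 TPM in Elys-KD cells and 3.24 TPM in control cells. The domain files hold positions only, with no score or read depth, and the replicates had been merged before calling, so no domain value carries a replicate error.

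Straddling domains were longer in the median than the other domains. Their median length was 4.2 kb (quartiles 1.8 and 8.4 kb), against 1.2 kb for domains wholly inside LADs and 1.5 kb for domains wholly outside. A length of 9 kb or more was reached by 479 straddling domains (23.6%), by 128 of those wholly inside LADs (1.81%) and by 484 of those wholly outside (9.44%). In consequence they held 12.9 Mb, or 29.5% of the Elys-covered length of the 4 arms, from 14.3% of the domains. A long domain has more chances to reach a boundary, so length and straddling are linked through the rule. The straddling share was 7.71% among domains of 0.6 to 0.9 kb, 11.9% at 1.2 to 2.1 kb, 16.4% at 2.4 to 4.5 kb, 29.3% at 4.8 to 8.7 kb and 43.9% at 9 kb and longer. Every arm showed this order of the length classes, with 37.0% on 2L and 51.6% on 3L as the extremes of the longest class.

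**Figure D1:**
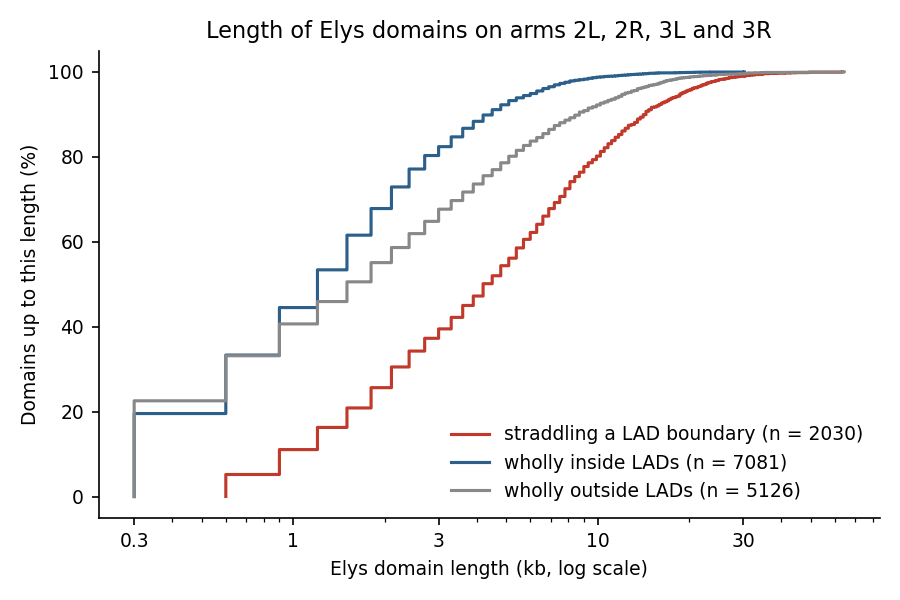
Cumulative share of Elys domains (vertical axis, percent) up to a given length (horizontal axis, kb, log scale) for the 2030 straddling domains, the 7081 domains wholly inside LADs and the 5126 wholly outside, on arms 2L, 2R, 3L and 3R. The straddling curve lies to the right of the others at its quartiles and median, with medians of 4.2, 1.2 and 1.5 kb, and its first step is at 0.6 kb because the rule needs at least 1 bin on each side.

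The length of straddling domains was split almost evenly by the boundary. They held 5.79 Mb inside LADs and 7.09 Mb outside, so that 44.9% of their length was lamina-associated, and this share averaged 44.8% ± 0.946 (SD, n = 4) over the arms. Measured at each crossed boundary, the median reach was 1.8 kb inward and 1.8 kb outward, with upper quartiles of 3.6 and 4.2 kb. The inward part was the longer at 1066 crossed boundaries, the outward part at 1153, and they were equal at 231. Some members only just met the rule: 312 had a single bin inside a LAD and 388 a single bin outside, with a median length of 1.2 kb in either set. Just beyond the rule, 1314 domains wholly inside LADs (median 0.9 kb) and 148 wholly outside (median 0.6 kb) ended exactly at a boundary without passing it.

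Most straddling domains passed 1 boundary, as 1673 of them (82.4%) did, while 304 passed 2, 44 passed 3, 8 passed 4 and 1 passed 5. Median length was 3.6 kb for those passing 1 boundary, 9 kb for 2 and 16.2 kb for 3. Of the 304 that passed 2 boundaries, 159 had both ends outside LADs and thus bracketed a merged LAD, and 145 had both ends inside LADs and thus spanned a gap between LADs. In all, 212 straddling domains contained at least 1 entire merged LAD, and 198 contained at least 1 entire gap.

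The longest straddling domain lay on 2R at chr2R:20891401-20955000 (dm3, as all coordinates here). It measured 63.6 kb, of which 4.5 kb was a single merged LAD that the domain contained whole. The longest of 3L, chr3L:8665501-8710200, had the same shape, with 1.8 kb of LAD in 44.7 kb. The longest of 3R, chr3R:17655301-17705100, and of 2L, chr2L:1403401-1437600, passed 3 boundaries each and held 9.3 kb of LAD in 49.8 kb and 13.2 kb of LAD in 34.2 kb. The domain passing 5 boundaries was chr3L:9084601-9109500, which contained 2 entire LADs and 2 entire gaps within 24.9 kb. These long members were thus mainly Elys-covered stretches outside LADs with small LADs embedded in them.

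Deep incursions into LADs had a different form. The deepest was made by chr2R:2386801-2421600, a domain of 34.8 kb that passed a single boundary and ran 27.6 kb into the LAD and 7.2 kb out of it. It was followed by chr2R:20184301-20214900 with 24.3 kb inward, chr3R:12342001-12374700 with 23.1 kb, chr3L:4541101-4565400 with 21.3 kb and chr3L:2528101-2557200 with 20.1 kb. In contrast, the farthest outward run, by chr2R:3600001-3649200, was 47.4 kb with 1.8 kb left inside the LAD.

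Seen from the boundaries, 2450 of 7352 (33.3%, Wilson 95% interval 32.3 to 34.4%) were crossed by an Elys domain. Intervals on shares of domains or boundaries cover counting error only, and neighbouring boundaries are not independent. A further 1633 boundaries (22.2%) had Elys in the last LAD bin only, 176 (2.39%) had it in the first bin outside only, and 3093 (42.1%) had it in neither. The called contact was therefore unequal. The 2450 crossed boundaries made up 93.3% of the 2626 with Elys in the first bin outside. They made up a smaller share of the 4083 with Elys in the last LAD bin (interval 58.5 to 61.5%). Whether first bins outside lacked reads, which would leave them out of both sets of domains, was not tested. Left and right ends of LADs were crossed alike, at 32.9% (interval 31.4 to 34.4%) and 33.8% (32.3 to 35.3%).

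The crossed share increased with the gap that separated the LAD from its neighbour. It was 25.2% for gaps of 1.2 to 3 kb, 32.5% for 3.3 to 9.9 kb, 47.2% for 10.2 to 30 kb and 47.5% for gaps over 30 kb. On each of the 4 arms the shares in both classes of longer gaps exceeded those in both classes of shorter gaps. Length of the LAD itself went with a smaller difference, at 35.8% for LADs of up to 2.7 kb, 33.5% for 3 to 14.7 kb and 31.4% for 15 kb or more. The highest share of any combination, 59.3% (interval 52.0 to 66.3%) of 177 boundaries, was that of LADs of up to 2.7 kb beside gaps over 30 kb. It ranged between 44.2 and 72.1% over the arms.

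**Figure D2:**
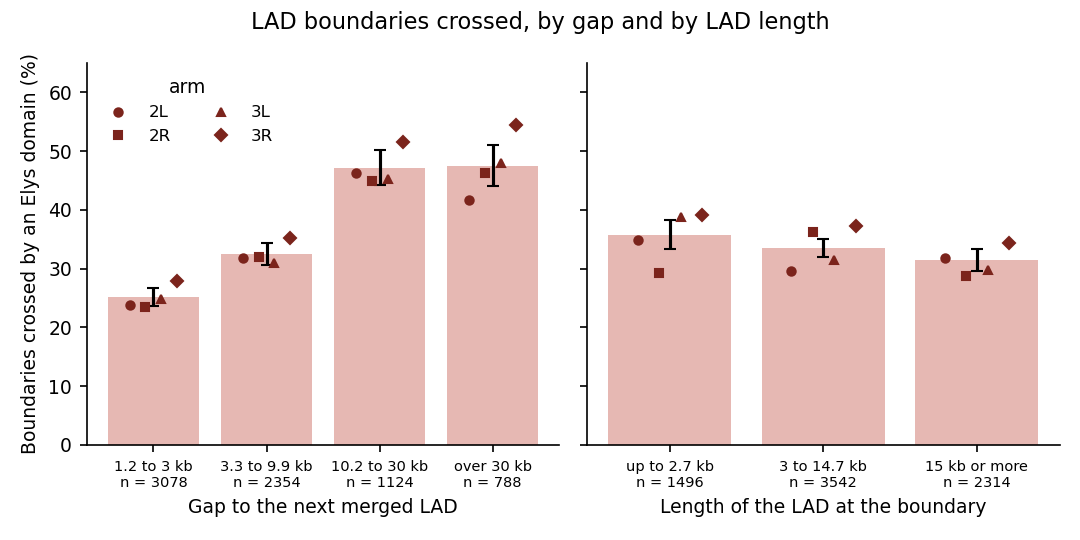
Share of LAD boundaries crossed by an Elys domain (vertical axis, percent) by the length of the adjacent gap between merged LADs (left) and by the length of the LAD (right). Bars pool the 4 arms with Wilson 95% intervals, which cover counting error only, and symbols give each arm; crossing lies at 25.2% beside gaps of 1.2 to 3 kb and at 47.5% beside gaps over 30 kb, and between 31.4 and 35.8% over the LAD classes.

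The ends of small LADs were often crossed together, mostly by a single Elys domain that covered the whole LAD. Of merged LADs of up to 2.7 kb, the right end was crossed in 53.1% of the 277 whose left end was crossed and in 23.6% of the 471 whose left end was not. For LADs of 15 kb or more the corresponding values were 32.3% and 31.6%. Both ends were crossed in 518 of 3676 LADs (14.1%), and 1 and the same Elys domain did so in 217 of these. Among LADs of up to 2.7 kb it was 117 of 147, and among those of 3 to 14.7 kb 98 of 255. Among those of 15 kb or more it was 2 of 116. Across gaps between LADs, with the boundary before a gap of 1.2 to 3 kb crossed, the boundary after it was crossed in 42.1% of cases, against 19.5% when it was not. For gaps over 30 kb these shares were 49.0 and 43.6%. In 203 of the 584 gaps with both ends crossed, the same Elys domain crossed both. Why the ends of a LAD or gap were crossed together was not tested.

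Among the 5 longest LADs with a straddling domain at either end, the first was chr3L:21967801-22059000, a LAD of 91.2 kb. Elys domains entered it by 2.1 kb on the left and 1.8 kb on the right, and Elys covered 32.2% of it in total. The second, chr2R:9132301-9218100 with 85.8 kb, was entered by 2.1 kb on either side and had 38.8% Elys coverage. In contrast, chr3L:2490301-2548200 with 57.9 kb was entered by 6.0 and 20.1 kb and was covered to 76.2%, and chr2R:11510401-11562300 with 51.9 kb to 69.4%. The third in length, chr2L:9618901-9684300 with 65.4 kb, was entered by 0.3 kb on the left, by the domain in which Trx2 starts, and by 11.4 kb on the right.

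Around crossed boundaries Elys coverage stayed high for several kb. At 2.25 kb inside the LAD, 64.5% of bins were Elys-covered beside crossed boundaries and 32.3% beside those not crossed. At 11.8 kb inside, the values were 39.3 and 34.1%. Outside, at 4.95 kb, 64.1% of bins were covered beside crossed boundaries and 34.7% beside the others, and at 11.8 kb these were 61.6 and 53.0%. With the bins of the crossing domain left out, no excess remained at 2.25 or 4.95 kb inside the LAD. Elys then covered 29.9% of bins at 2.25 kb inside beside crossed boundaries and 32.3% beside the others, and at 4.95 kb inside 30.4 and 33.9%. At 11.8 kb inside, the share beside crossed boundaries was the higher, at 36.9 against 34.1%. The bin next to the crossing domain is never in another domain, which lowers the shares at short distances. At 4.95 kb outside, 44.5% were still covered beside crossed boundaries, against 34.7% beside the others. Only gaps that reach this far count here, and crossed boundaries lay more often beside long gaps. The part of gap length in this difference was not tested. Boundaries not crossed had Elys in 33.3% of the last LAD bins and in 3.59% of the first bins outside, a step that lies in the definition of the group in part, since a domain present in both bins would have crossed.

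**Figure D3:**
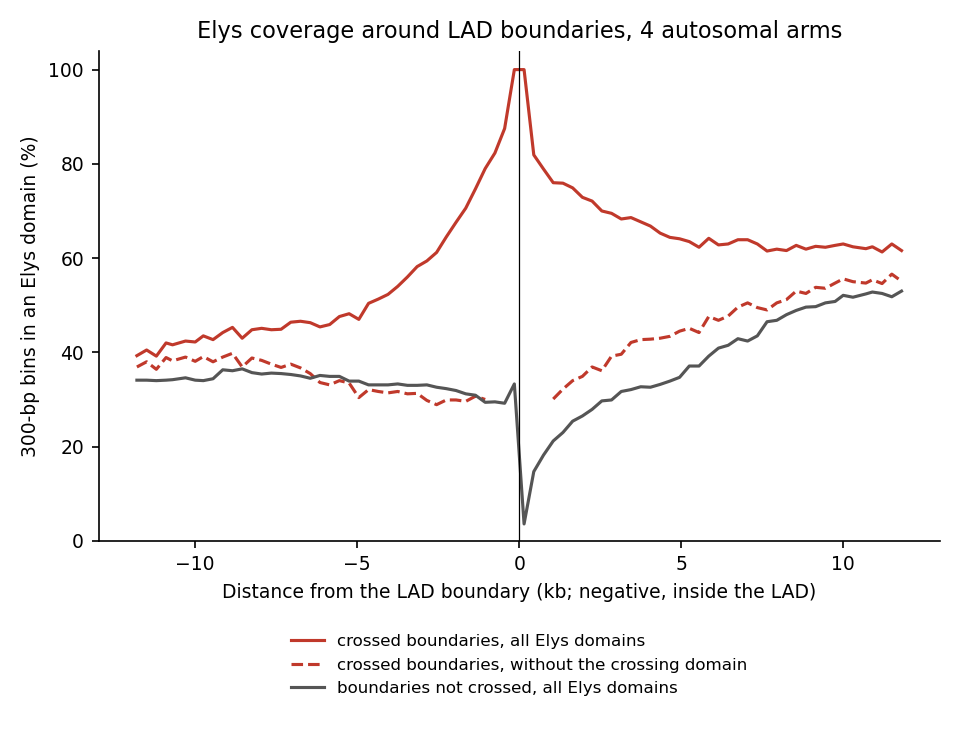
Share of 300-bp bins in an Elys domain (vertical axis, percent) by distance from the LAD boundary (horizontal axis, kb, negative inside the LAD) for the 2450 crossed boundaries, with all Elys domains (solid) or without the bins of the crossing domain (dashed, drawn from about 1 kb on either side), and for the boundaries that were not crossed (grey). Bins past the far end of the LAD or gap are left out; at 11.8 kb the solid line is at 39.3% inside and 61.6% outside, against 34.1 and 53.0% for boundaries not crossed.

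The ends of straddling domains often met another interruption of both profiles. Of 2016 ends lying in LADs, 717 (35.6%) were followed by a bin that was also missing from the deposited Lam domains and had been filled by the merging, and for domains wholly inside LADs this was 43.1% of 14162 ends. Where an Elys domain resumed after a single missing bin, 451 of 556 such bins (81.1%) next to straddling domains were missing from Lam too, compared with 81.2% next to domains wholly inside LADs. Whether these bins lacked reads was not tested, as the read profiles were not analysed here. Filled gaps made up 1.45% of the LAD side of straddling domains by length. They made up 3.59% of domains wholly inside LADs and 5.8% of merged LADs as a whole.

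Along the arms, straddling domains lay at a median of 21 per 1-Mb window over 94 windows (quartiles 18 and 25). Per arm, 474 lay on 2L, 396 on 2R, 520 on 3L and 640 on 3R, or 13.5 to 14.8% of the Elys domains of the arm. The richest window was chr3L:13000001-14000000 with 36, where 50.0% of 88 boundaries were crossed. The 2 poorest windows adjoin the centromere of their arm. In chr3L:23000001-24000000, 1 straddling domain was found and 1.69% of 118 boundaries were crossed, and in chr2R:1-1000000, 2 were found and 0.952% of 105 boundaries were crossed. Elys domains covered 7.59 and 10.1% of these windows, and LADs 41.7 and 33.6%. The first window of 3R, which also adjoins the centromere, held 24 straddling domains (chr3R:1-1000000), with 46.2% of 65 boundaries crossed. In chr2L:21000001-22000000, with 6 straddling domains, 40.7% of the 27 boundaries were crossed, so there the low number went with few boundaries. Neighbouring straddling domains were separated by a median of 21.9 kb, and 351 of 2026 neighbouring pairs lay within 3 kb of each other.

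Gene starts in the coordinates of the domains were held for 1998 genes, all within the first 16.5 Mb of arm 2L. This stretch contains 351 straddling domains, 17.3% of all, so everything that follows on genes concerns these. A gene start lay in 116 of them (33.0%), compared with 11.6% of the 1177 domains wholly inside LADs and 32.4% of the 985 wholly outside. At least part of a gene body was met by 255 (72.6%), and 96 met no gene. In total 239 genes started in straddling domains, up to 10 in a single domain. Gene starts were sparser on the LAD side of these domains, with 8.79 per 100 kb, than on their outer side, with 14.9 per 100 kb, and the density was 8.63 in domains wholly inside LADs and 19.7 in domains wholly outside. Transcription ran away from the LAD for 41 of 78 genes starting on the LAD side and 78 of 161 starting outside, so neither strand prevailed.

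RNA levels in S2 cells differed between the sides of straddling domains. The 78 genes starting on the LAD side had a median of 0.0219 TPM in Elys-KD cells and 0.0248 TPM in control cells, and 12 of them (15.4%) exceeded 1 TPM in control cells. The 161 genes starting on the outer side had a median of 12.3 TPM in Elys-KD cells and 11.9 TPM in control cells, and 112 of them (69.6%) exceeded 1 TPM in control cells. In control cells the medians were 0.0532 TPM for genes in domains wholly inside LADs and 26.8 TPM for those in domains wholly outside. Without an Elys domain at the start they were 0.0113 TPM in LADs and 13.2 TPM outside. The LAD-side median of straddling domains thus lay between those of other LAD genes with and without Elys. The median of the outer side lay below that of genes in domains wholly outside. Against genes outside LADs with no Elys domain the measures went either way, with a lower median on the outer side but 69.6% of genes over 1 TPM there and 65.9% without Elys. The LADs are those of whole embryos while the RNA is that of S2 cells, so the positions of LADs in the cells whose RNA was measured are not known here.

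**Figure D4:**
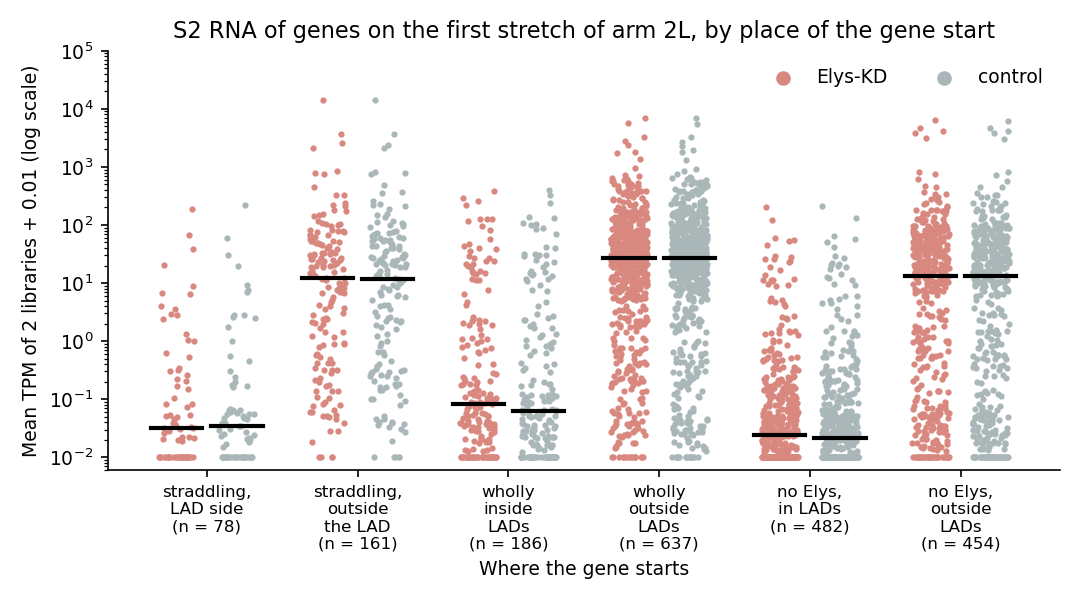
Mean TPM of 2 libraries plus 0.01 (vertical axis, log scale) of every gene of the first 16.5 Mb of arm 2L in Elys-KD (red, left) and control (grey, right) S2 cells, by where the gene starts; black lines are medians. Genes on the LAD side of straddling domains lie low (median 0.0248 TPM in control cells) and those on the outer side lie high (11.9 TPM), with Elys-KD medians next to the control medians in every class.

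This difference was present close to the boundary as well. Among genes starting within 1 kb of it, the control median was 0.0374 TPM on the LAD side (22 genes, 5 of them over 1 TPM) and 2.29 TPM on the outer side (43 genes, 23 over 1 TPM). From 2 to 4 kb the medians were 0.00411 TPM for 24 genes on the LAD side and 24.1 TPM for 44 genes outside. Gene starts lay on both sides in 22 straddling domains, and in 18 of these the median gene of the outer side was the higher, while in 4 that of the LAD side was. The median over the 22 domains was 0.0376 TPM for their LAD sides and 5.11 TPM for their outer sides.

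Crossed boundaries differed little from the others in their position relative to genes. Of 403 crossed boundaries on the stretch, 58.8% lay within a gene, compared with 60.6% of the 871 not crossed. A gene start lay within 1 kb of 15.6% of crossed boundaries and 13.1% of those not crossed, and a gene 3′ end within 1 kb of 13.6 and 13.0%. Where a boundary lay within a gene, the gene exceeded 1 TPM in control cells for 47.7% of crossed boundaries and for 38.8% of those not crossed. These shares are given as a description, since many boundaries share a gene.

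The 10 most abundant transcripts starting in straddling domains all started on the outer side and were those of housekeeping genes for the most part. RpLP1, a protein of the ribosomal stalk, had 13900 and 14200 TPM in Elys-KD cells, against 14400 and 14200 TPM in control cells, and it started 4249 bp outside the LAD in a domain of 7.8 kb. RpL40, a ribosomal protein made as a ubiquitin fusion, averaged 3730 ± 75.4 TPM in Elys-KD cells and 3660 ± 35.8 TPM in control cells (SD, n = 2 each). RpS21, a protein of the small ribosomal subunit, averaged 2560 ± 54.2 and 2340 ± 74.6 TPM in the same order. None of these ribosomal genes passed the test described below. RpS21 came closest, with a log2 fold change of 0.16 ± 0.0434 (SE) and an edgeR adjusted p of 0.0509.

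Rack1, a scaffold protein bound to the ribosome, and mts, the catalytic subunit of protein phosphatase 2A, started in the same straddling domain, chr2L:7826101-7835700. Rack1 averaged 2080 TPM in either group. For mts the libraries had 331 and 326 TPM in Elys-KD cells, against 350 and 350 TPM in control cells, a log2 fold change of -0.13 ± 0.03 (SE) with an edgeR adjusted p of 0.0317. The thioredoxin gene Trx2 averaged 860 TPM in Elys-KD cells and 833 TPM in control cells, and cype, a subunit of cytochrome c oxidase, 790 and 772 TPM. The virus-induced gene vir-1 fell by 0.12 on the log2 scale (453 and 453 TPM in Elys-KD cells, against 483 and 489 TPM in control cells, edgeR adjusted p = 0.0482). These differences in mts and vir-1 are under the 1.5-fold ratio set for a call.

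Among these genes, Tspo and Idgf2 lay nearest to the boundary, and each shared its domain with a gene on the LAD side. Tspo, for a protein of the outer mitochondrial membrane, started 189 bp outside the LAD in chr2L:558901-562200 and had 760 and 760 TPM in Elys-KD cells, against 755 and 749 TPM in control cells. On the other side, 509 bp inside the LAD, started rempA, a subunit of the intraflagellar transport machinery, with 40.4 and 37.8 TPM in Elys-KD cells, against 30.3 and 31.4 TPM in control cells. The rempA groups did not overlap and differed by a log2 fold change of 0.29 (edgeR adjusted p = 0.00352), short of the 1.5-fold ratio. The chitinase-like growth factor genes Idgf1 and Idgf2 started on the LAD side and on the outer side of chr2L:16441801-16449300. Idgf1, 1321 bp inside the LAD, had 194 and 186 TPM in Elys-KD cells, against 215 and 218 TPM in control cells, and it was the only gene starting on the LAD side of a straddling domain with over 100 TPM (singled out after its value was seen). Idgf2, 737 bp outside, had 326 and 320 TPM in Elys-KD cells, against 364 and 378 TPM in control cells. Both fell slightly, by 0.22 (Idgf1, edgeR adjusted p = 0.0069) and 0.23 (Idgf2, edgeR adjusted p = 0.00536) on the log2 scale. The 2 genes are paralogs, and reads that they share could move between them. CG5888, which also started on the outer side of this domain, was lower as well. It had 23.9 and 23.7 TPM in Elys-KD cells, against 28.0 and 28.8 TPM in control cells. Its log2 fold change was -0.29 (edgeR adjusted p = 0.00234), short of the 1.5-fold ratio.

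Depletion of Elys left most genes of straddling domains near their control level. Of the 239 genes, 160 had enough counts to be tested with edgeR's quasi-likelihood test, namely 21 of 78 on the LAD side and 139 of 161 on the outer side. A gene was called at a Benjamini-Hochberg adjusted p under 0.05 over all 9156 genes tested, provided that its mean TPM also differed more than 1.5-fold between the groups. Of the 160, 6 were called (3.75%), where 3.19% of all genes tested were. Of these, 5 were higher in Elys-KD cells, a direction in which 2.54% of all genes tested were called, and 1 was lower, against 0.644% of all. By the adjusted p alone, 36 of 160 (22.5%) passed, against 16.6% of all. The median log2 fold change over the 160 was 0.04, and over all genes tested it was 0. In bulk RNA, a change in the share of some cells and a change of RNA per cell cannot be told apart.

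On the LAD side, 17 of the 21 tested genes were higher in Elys-KD cells and their median log2 fold change was 0.20, with quartiles of 0.02 and 0.38. On the outer side, 82 of 139 were higher, with a median of 0.02. In domains wholly inside LADs 45 of 78 were higher, with a median of 0.08, and in domains wholly outside 254 of 567 were, with a median of -0.02. In LADs with no Elys domain at the start, 58 of 99 were higher, with a median of 0.06 and quartiles of -0.13 and 0.48. Only 26.9% of the LAD-side genes passed the filter on low counts, and a gene near 0 can pass through 1 group alone. With every gene that had any count, 37 of 59 on the LAD side were higher. In domains wholly inside LADs 99 of 161 then were, and in LADs with no Elys domain at the start 201 of 338, so these shares lay close together. The medians were then 0.20, 0.12 and 0.12 in that order. Over all genes tested with the filter, 50.1% were higher. Of the tested LAD-side genes, 1 of 21 was called (4.76%), CG16815, against 7 of 78 in domains wholly inside LADs (8.97%) and 11 of 99 in LADs with no Elys domain at their start (11.1%).

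Of the 6 called genes, 3 started in the same straddling domain, chr2L:13221601-13230000, which reached 6.6 kb outside and 1.8 kb into a LAD of 7.8 kb. CG15480, starting 2995 bp outside the boundary, had 1.45 and 1.37 TPM in Elys-KD cells, against 0.366 and 0.237 TPM in control cells (log2 fold change 2.20 ± 0.378 (SE), edgeR adjusted p = 0.0104). CG16813 started 348 bp outside, and its body lay across the boundary. It had 14 and 31 counts in Elys-KD cells, against 0 and 1 counts in control cells, a ratio of 50.3 per library total with an exact 95% counting interval of 8.57 to 2030, and an edgeR adjusted p of 0.0103. The interval covers counting error only. Its fitted log2 fold change was 5.30, with 4.38 when control replicate 1 was left out and 7.57 when control replicate 2 was, where the remaining control library held no count and the fitted value is set by the prior count. CG16815 started 1441 bp inside the LAD and had 1.12 and 0.937 TPM in Elys-KD cells, against 0.0364 and 0.0617 TPM in control cells, or 52 and 44 counts against 2 and 3. Its ratio was 21.4 (exact 95% counting interval 8.88 to 67.6) and its edgeR adjusted p was 0.000626. Each of the 3 passed the filter on low counts only through the Elys-KD libraries. Without that filter the edgeR adjusted p was 0.0141 for CG15480, 0.0197 for CG16813 and 0.00178 for CG16815. All 3 were higher in both Elys-KD libraries than in both control libraries, and all remained near or under 1.6 TPM.

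The neighbours in that domain did not follow them. Ski6, a subunit of the RNA exosome, lay at 49.6 and 52.1 TPM in Elys-KD cells, against 53.9 and 55.6 TPM in control cells (edgeR adjusted p = 0.109). CG16812 lay at 102 and 99.9 TPM in Elys-KD cells, against 103 and 103 TPM in control cells (edgeR adjusted p = 0.218). Both started over 5 kb outside the boundary. Deeper in the LAD and outside the domain, Prosalpha6T, a testis-specific proteasome subunit, and Mabi were listed between 0 and 0.117 TPM in all 4 libraries. The rise was thus measured in the 3 lowly expressed genes that start nearest to the boundary in this domain. Without control replicate 2, CG15480 no longer passed the test (log2 fold change 1.93, edgeR adjusted p = 0.0528), and DESeq2 gave no adjusted p for CG15480 and CG16813.

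**Figure D5:**
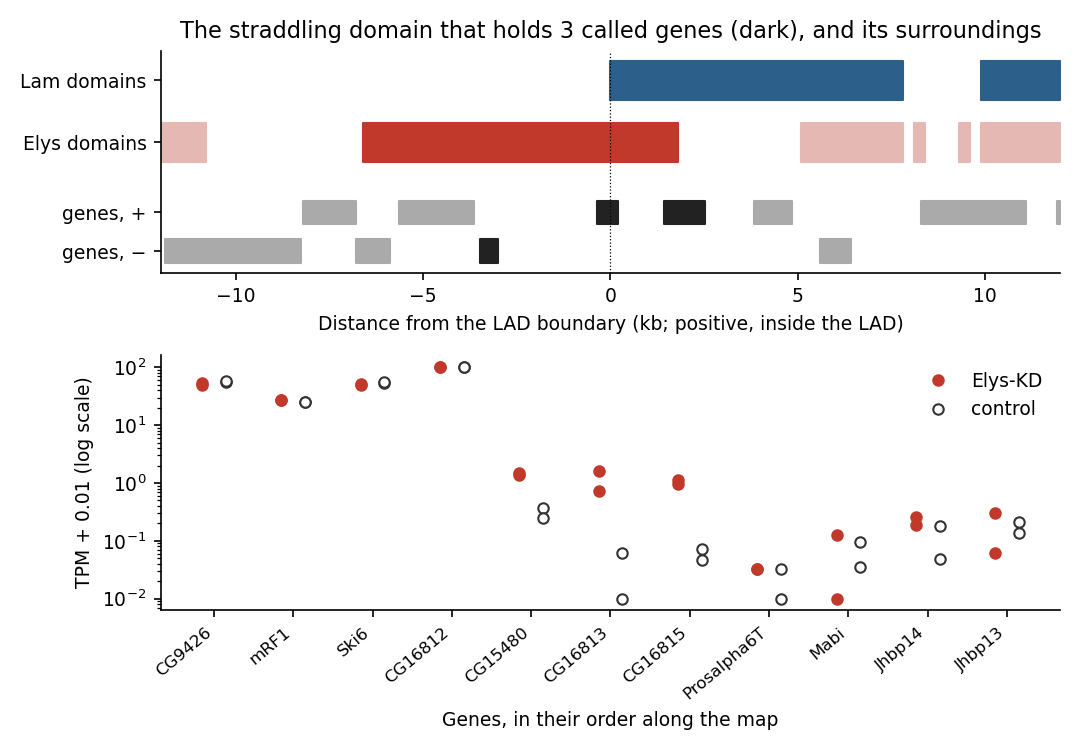
Top, Lam domains, Elys domains and genes within 12 kb of the LAD boundary passed by the straddling domain that holds 3 called genes (horizontal axis, kb from the boundary, positive inside the LAD; the straddling Elys domain in red, called genes dark). Bottom, TPM plus 0.01 (log scale) of the same genes in each Elys-KD (red) and control (open) library; CG15480, CG16813 and CG16815 are higher in both Elys-KD libraries, while Ski6 and CG16812 lie near 50 and 100 TPM in both groups.

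The other called genes were spread over further straddling domains and all started outside the LAD. The gene aru, for an adaptor protein related to Eps8, had 78.5 and 77.1 TPM in Elys-KD cells, against 44.4 and 43.1 TPM in control cells (log2 fold change 0.79 ± 0.0383 (SE), edgeR adjusted p = 9.13e-05). It was the only gene to start in chr2L:864301-868500, 3451 bp from the boundary. Pvf2, a ligand of the PDGF/VEGF-type receptor Pvr, had 35.0 and 34.4 TPM in Elys-KD cells, against 21.2 and 20.5 TPM in control cells (log2 fold change 0.70 ± 0.0367 (SE), edgeR adjusted p = 0.000103). It too started alone in its domain, chr2L:7083601-7091400. CG7781 was the single called gene that was lower, with 1.27 and 1.19 TPM in Elys-KD cells, against 2.08 and 2.34 TPM in control cells (log2 fold change -0.88 ± 0.139 (SE), edgeR adjusted p = 0.00771). In its domain, chr2L:8319601-8333400, mtsh was slightly lower too, with 19.9 and 18.5 TPM in Elys-KD cells, against 20.8 and 21.1 TPM in control cells. The log2 fold change of mtsh was -0.17 (edgeR adjusted p = 0.0247), short of the 1.5-fold ratio. In the same domain, strat had 81.9 and 82.1 TPM in Elys-KD cells, against 77.4 and 77.3 TPM in control cells. CG14275 had 0.553 and 0.603 TPM in Elys-KD cells, against 0.272 and 0.279 TPM in control cells (edgeR adjusted p = 0.0684).

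Long genes met several straddling domains. Of the 362 genes whose body was met by at least 1, 299 met 1, 47 met 2, 11 met 3, 4 met 4 and 1 met 5, and the median length of the 362 was 4.0 kb against 1.8 kb for the other genes of the stretch. The gene with 5 was Sema1a, a transmembrane semaphorin of axon guidance, whose 130 kb body was met by domains of 0.9 to 13.2 kb, the longest being chr2L:8573101-8586300 with 6.9 kb inside a LAD. Sema1a had 6.01 and 5.67 TPM in Elys-KD cells, against 3.77 and 3.92 TPM in control cells (log2 fold change 0.49 ± 0.0383 (SE), edgeR adjusted p = 0.00052), and at a TPM ratio of 1.52 it was called. The call rests on the TPM ratio, just past the limit, since the fitted fold change is under 1.5-fold.

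The genes with 4 straddling domains were not called. Ddr, for a discoidin domain receptor, was at 0.0128 and 0.0238 TPM in Elys-KD cells and 0.0213 and 0.0347 TPM in control cells, too low to be tested. The steroid receptor coactivator gene tai averaged 24.0 ± 2.09 TPM in Elys-KD cells and 21.2 ± 1.25 TPM in control cells, and Nos, for nitric oxide synthase, 2.71 ± 0.178 and 2.84 ± 0.00441 TPM in the same order (SD, n = 2 each). The gene bru1, for the RNA-binding protein Bruno, started inside a straddling domain, chr2L:12173401-12177900, and averaged 0.131 TPM in Elys-KD cells and 0.0917 TPM in control cells (edgeR adjusted p = 0.636). The S2 levels of these long genes differed widely.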

How the data were processed

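DamID-seq covered 16 to 18 h embryos (Dam, Dam-Elys and Dam-Lam, 2 replicates each) and RNA-seq covered S2 cells (Elys-KD and control, 2 replicates each). For DamID, the authors mapped reads to dm3 with Bowtie2, counted them with HTSeq in 300-bp bins, merged the replicates, took log2 ratios to Dam and called domains with a 3-state (Elys) or 2-state (Lam) hidden Markov model. The deposited domain files hold start and end positions in bp, with no score. For RNA, the authors deposited Salmon's estimated count and TPM per gene (FlyBase genes of dm3). Versions of these tools are not given in the sources used here. Dam-Lam DNA had 16 PCR cycles, and Dam and Dam-Elys DNA had 18.

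Intervals were handled in bins with Python 3.11.15, NumPy 2.4.6 and pandas 2.3.3. Wilson and exact intervals came from SciPy 1.17.1 and plots from Matplotlib 3.10.9. Estimated counts were rounded and fitted in R 4.3.3 with edgeR 4.0.16 (filterByExpr, TMM, quasi-likelihood test, no block, Benjamini-Hochberg over 9156 genes), with DESeq2 1.42.0 as an alternative. Sampling precision of a gene follows from its count. Gene positions on arm 2L came from the position columns of a gene list of the study, held in part, and no measured value of that list was used. Symbols came from a reference table. Interval and count steps were tested on simulated data.

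Named genes were the 10 highest in control cells, all called genes starting in straddling domains, and the 5 genes met by most of them, and neighbours in the same domain were added. Named domains were the longest per arm and those ranked by reach or boundaries. Members, lists and tests were chosen with earlier results of these data known. Alternatives covered merging of Lam and Elys domains, the smallest LAD, bins per side, the tool, scaling, filter, replicate block, call rule, gene bodies and leaving out each replicate. Samples were grouped by their labels. Each p-value sets the difference between the groups against the spread of 2 replicates per group, estimated with information shared across genes.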

Additional observations from a re-analysis of the deposited data

How the results depend on the processing

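The number of straddling domains depends on how Lam domains are joined. Without merging it was 3088, against 2030 with gaps of up to 900 bp filled, with 22.2% of boundaries crossed and 49.1% of the length in LADs. Merging over up to 300 bp gave 28.3 and 47.0% for these shares, over up to 1500 bp 36.2 and 43.5%, and over up to 3000 bp 39.2 and 41.6%. With Elys domains merged over gaps of up to 900 bp the shares were 44.1 and 45.4%, and with at least 2 bins on each side 24.1 and 44.1%. With LADs of at least 900 bp only, 1952 domains, 33.7% and 45.3% were found. Since the domains carry no depth, precision beyond counting is unknown.

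Of the 160 tested genes starting in straddling domains, 6 were called, 3 at a TPM ratio over 2 and 36 by adjusted p alone. Of all genes tested, 3.19% were called and 16.6% passed by adjusted p alone, and for the ratio over 2 no such share was computed. With gene bodies overlapping the domain, 10 of 239 tested genes were called. In fits without 1 library, the lone sample of a group is assumed to vary like the other group. The median log2 fold change of 0.036 was 0.063 with library totals alone and 0.02 to 0.031 without 1 library. With the replicate number as a block, 6 genes were called and the median was 0.036. Across the tested genes, the deviations of same-numbered libraries from their group means had r = -0.0721. With 2 libraries per group the other pair mirrors this one, so the value is a single comparison and cannot settle whether samples were paired. The numbers were not taken to pair the samples. Of 48 alternative fits of the 6 called genes, 45 kept the call, 1 lost it, 0 reversed and 2 gave no adjusted p, so that DESeq2 called 4 of the 6. Genes with a few counts per library, CG16813 among them, are limited by depth.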

Other observations

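Outside the 4 large autosomal arms, the same rule gave 374 straddling domains on X, or 9.75% of its 3837 Elys domains, and 37 on chromosome 4, or 24.3% of 152. On X, 21.4% of 2002 LAD boundaries were crossed (Wilson 95% interval 19.7 to 23.3%), against 31.4 to 36.5% on the 4 arms. The share of boundaries with Elys in the last LAD bin was 52.3% on X, next to 52.5% on 3L, the lowest of the 4 arms. With Elys in the first bin outside, the share was 23.0% on X and 34.2 to 39.3% on the 4 arms. On chromosome 4, 46.2% of 106 boundaries were crossed (37.0 to 55.7%), Elys lay in the last LAD bin at 76.4%, and all 49 boundaries with Elys in the first bin outside were crossed.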
